A study of Rattus norvegicus with 12 samples.

Results

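The block of the corticosteroid response by RU486 was compared between cortivazol (CVZ), corticosterone (COR) and aldosterone (ALD) in cultured rat heart muscle cells. The probe sets followed for a ligand were selected on the measured signals of the first of 2 experiments, as those that changed at least 2-fold with it on a log2(signal + 0.0696) scale, 1 array against 1. The block was then read on the arrays of the second experiment, which had no part in that choice. The rule took 5829 probe sets for CVZ (3069 rose and 2760 fell), 5083 for COR (2657 and 2426) and 5073 for ALD (2754 and 2319), together 10130 of 31042. Of these, 1249 changed 2-fold in the same direction with all 3 ligands. A first change of 2-fold on 1 array against 1 array is common among dim probe sets. Only 1316, 828 and 668 of the members had a mean log2 signal over the 12 arrays above the 40th percentile, here the low-signal limit, a geometric mean of signal plus the added constant of 0.63. That limit also counts the arrays on which the block was read, so a probe set that passed it only through the arrays where it is high had to differ there. Values over the members above it are therefore a description.

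The cells were primary ventricular cardiomyocytes of Wistar rats aged 1 day. They were kept 24 h in OPTI-MEM and then given ethanol vehicle, CVZ, COR or ALD for 3 h. In the second experiment only, 4 further dishes were first given 10 µM RU486 and then no ligand, CVZ, COR or ALD. Each condition was 1 array per experiment, giving 4 arrays in the first and 8 in the second. No group carried a genetic change. Heart fibroblasts had been separated by their faster attachment, and the genes that mark heart muscle gave the highest summed signals on every array of the second experiment. Those 11 genes summed to 2504 to 2780 times the array median without RU486 and 2226 to 2487 with it, led by Myh6. The 9 fibroblast markers summed to 226.5 to 231.1 and 202.1 to 219.7, and the 9 macrophage markers to 15.5 to 18.0 and 12.8 to 17.2. The 6 smooth muscle markers, led by Des, summed to 100.1 to 114.3 and 91.3 to 100.3. The 7 endothelial markers measured summed to 10.5 to 23.2 and 9.84 to 12.5. Nothing in the labels says that the 2 experiments were separate cell preparations, so p-values cover only array-to-array spread, which may be technical. The sources used here give no dose for any ligand, and the doses may differ. The values of the ligands are thus given side by side, and a difference between ligands cannot be told apart from one of dose.

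Corticosteroids enter the cell and bind the glucocorticoid receptor (GR) and the mineralocorticoid receptor, which are held by chaperones until ligand binds and then act in the nucleus as transcription factors. RU486, also called mifepristone, occupies the ligand pocket of GR without giving the full active form and so blocks agonists, with some weak agonist activity of its own in certain settings. Corticosterone is the main glucocorticoid of the rat, aldosterone is the mineralocorticoid that differs from it by an aldehyde on the steroid nucleus, and cortivazol is a synthetic agonist with a phenylpyrazole fused to the A ring. In heart muscle GR is known to induce Klf15 and Fkbp5. For every member 3 quantities are used below, all log2 differences between arrays of the second experiment. The response is ligand minus vehicle, the response left is ligand plus RU486 minus RU486 alone, and the loss is the second minus the first. The percentage lost over a set of members is 100 times 1 minus the summed response left over the summed response, each counted in the direction of the first experiment.

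The 3 responses were unequal without RU486 and nearly equal with it, so the percentage lost was highest for the ligand with the largest response. Over the members above the low-signal limit the mean signed response was 0.77 for CVZ, 0.47 for COR and 0.18 for ALD. The mean response left was 0.05, 0.09 and 0.08. The percentage lost was accordingly 93.0% for CVZ, 82.0% for COR and 53.9% for ALD. The ALD value takes in 311 members that fell first, whose mean response was 0.02 and mean response left 0.07. Over the 357 that rose with ALD it was 70.8%. No error can be put on these percentages from repeated RU486 arrays, because there was 1 array per condition. When the choice was made on the second experiment and the response without RU486 was read on the first, the percentages were 92.0%, 82.3% and 76.2%. For ALD this exchange moved the value by more than the CVZ to COR difference.

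The same order was seen where the 3 ligands were read over the same probe sets. Over the 192 common members above the limit (169 rose and 23 fell), the mean response was 1.06 for CVZ, 0.81 for COR and 0.61 for ALD. The response left was 0.12, 0.12 and 0.14, and the loss 89.0%, 85.2% and 76.5%. Over the 1316 members of CVZ above the limit, the loss was 93.0% of the CVZ response, 84.8% of the COR response and 64.6% of the ALD response. The ligands shared the vehicle array and the RU486 array, so a low or high value on either moves all 3 together. Among the 23 common members that fell the order of CVZ and COR was the other way round, with 80.1% and 89.2% lost.

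**Figure D1:**
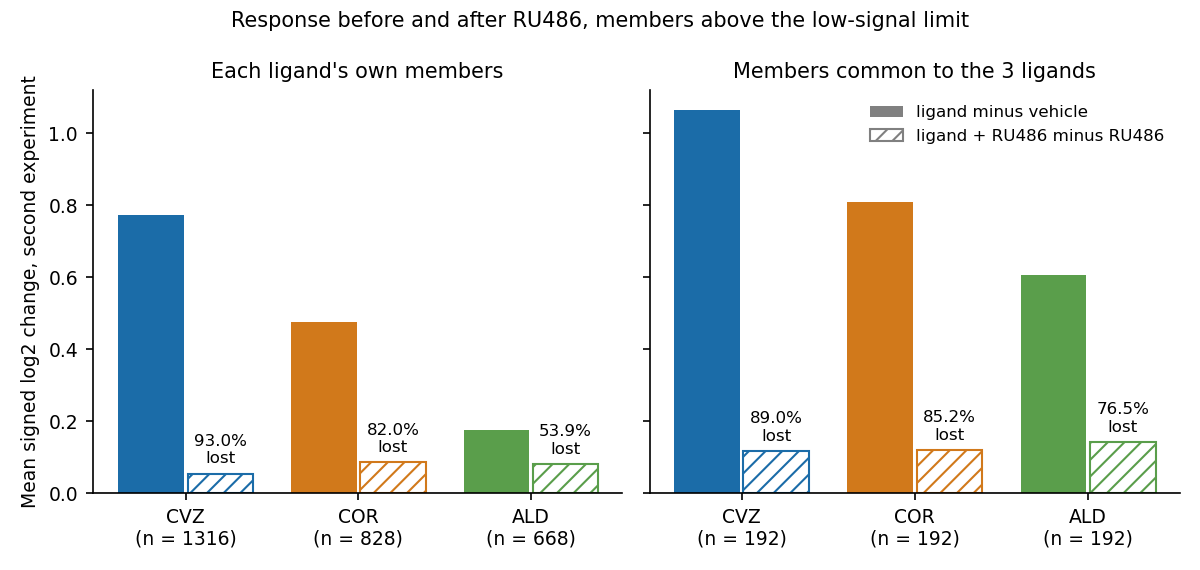
Mean signed log2 change on the y axis for members above the low-signal limit, in the direction of the first experiment. Filled bars are ligand minus vehicle and hatched bars are ligand plus RU486 minus RU486, each from 1 array per condition of the second experiment. The filled bars step down from CVZ to COR to ALD on both sides, while the hatched bars lie between 0.05 and 0.14.

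Most of the first changes did not reach 2-fold again, with or without the low-signal limit. Over all members the response had the direction of the first experiment in 58.3% for CVZ, 53.5% for COR and 51.5% for ALD, and it reached 2-fold again in 1377, 952 and 816. Above the limit the direction was the same in 78.7%, 68.5% and 58.4%. There 2-fold was reached again in 474 of 1316, 201 of 828 and 77 of 668. The mean signed response over all members was 0.24, 0.10 and 0.02, against a first change of 1.66, 1.63 and 1.65. The loss was 91.3% of the CVZ response and 74.0% of the COR response. For ALD no percentage is given, since its mean response of 0.02 was below 0.05, a minimum set after the values had been seen. The difference of 17.3 percentage points between CVZ and COR over all members was 1.06 points with the 2 experiments exchanged and 3.96 points at a 3-fold limit.

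Members close to the 2-fold limit were as follows, with no test. For CVZ, Slc10a7 lay just inside at a first change of -1.0004 with a response of -0.48, and Rapgefl1 just outside at -0.9994 with a response of -0.66. For COR, Cplane1 lay inside at 1.0004 with a response of 0.54, and Nbeal2 outside at 0.9998 with a response of 0.80. For ALD, Dgke lay inside at 1.0029 with a response of 2.10, and Phf7 outside at 0.9990 with a response of -0.44.

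Among members that rose above the limit, the loss was 96.2% for CVZ (713 probe sets), 84.0% for COR (505) and 70.8% for ALD (357). Among those that fell it was 85.7% for CVZ (603) and 74.1% for COR (323), while the 311 that fell with ALD had a mean response of 0.02 and give no percentage. The median over single members that responded again by at least a log2 of 1 was 94.2% for CVZ (474 members), 85.5% for COR (201) and 81.6% for ALD (77). These members were picked on the same response that enters the percentage, so the medians are a description.

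**Figure D2:**
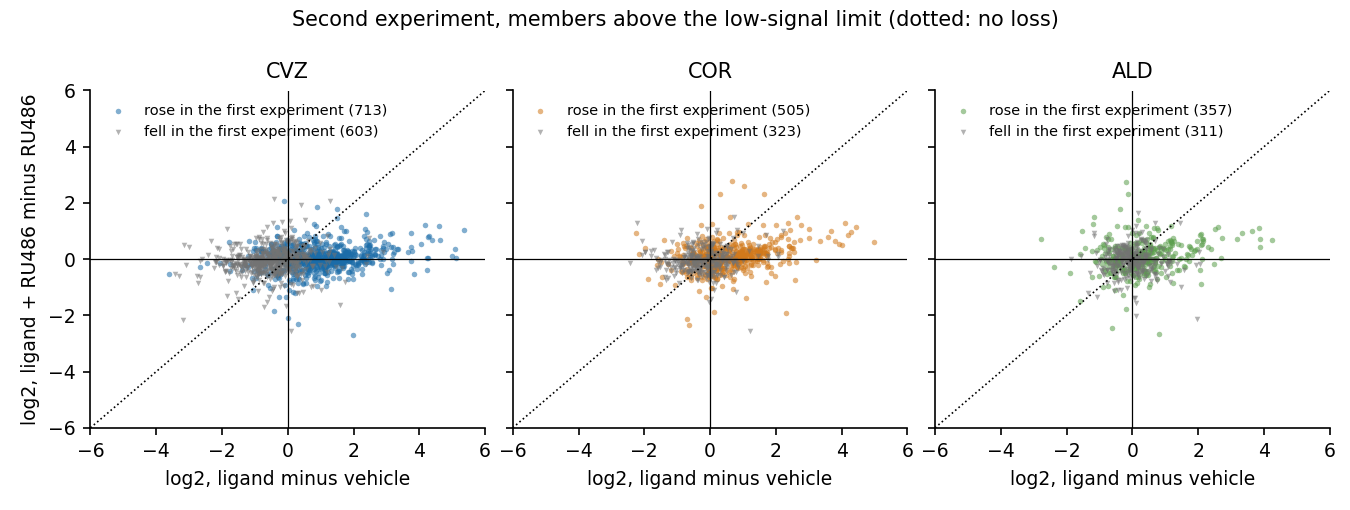
Response without RU486 (x axis, log2 ligand minus vehicle) against response left (y axis, log2 ligand plus RU486 minus RU486), 1 point per member above the low-signal limit. Circles rose and triangles fell in the first experiment, and the dotted line marks no loss. The points spread along the x axis most for CVZ (1316 points) and least for ALD (668), and in all 3 panels lie along the horizontal axis rather than the dotted line.

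Of the common members above the limit, 48 responded again by at least a log2 of 1 to each of the 3 ligands, 46 upward and 2 downward. This choice used the second-experiment arrays on which the response is read, so the values for the 48 are a description. Without RU486 the median response of the 48 was 2.90 with CVZ, 2.40 with COR and 1.87 with ALD, and the order CVZ above COR above ALD held in 41 of 48. With RU486 the median response left was 0.38, 0.45 and 0.50. That order then held in 11 and the reverse order in 12. The median distance between the highest and the lowest of the 3 ligands was 1.10 without RU486 and 0.39 with it. The response left kept the direction of the response for all 3 ligands in 37 of the 48. The median loss was 87.1% for CVZ, 82.1% for COR and 73.2% for ALD, and CVZ lost more than ALD in 37 members, COR more than ALD in 35 and CVZ more than COR in 31. The lowest loss was 7.17% for CVZ (RT1-Ba), 48.1% for COR and 39.0% for ALD. The highest were 113.4%, 128.8% and 142.3%, and a value over 100% means that the signal lay on the other side of the RU486 array.

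**Figure D3:**
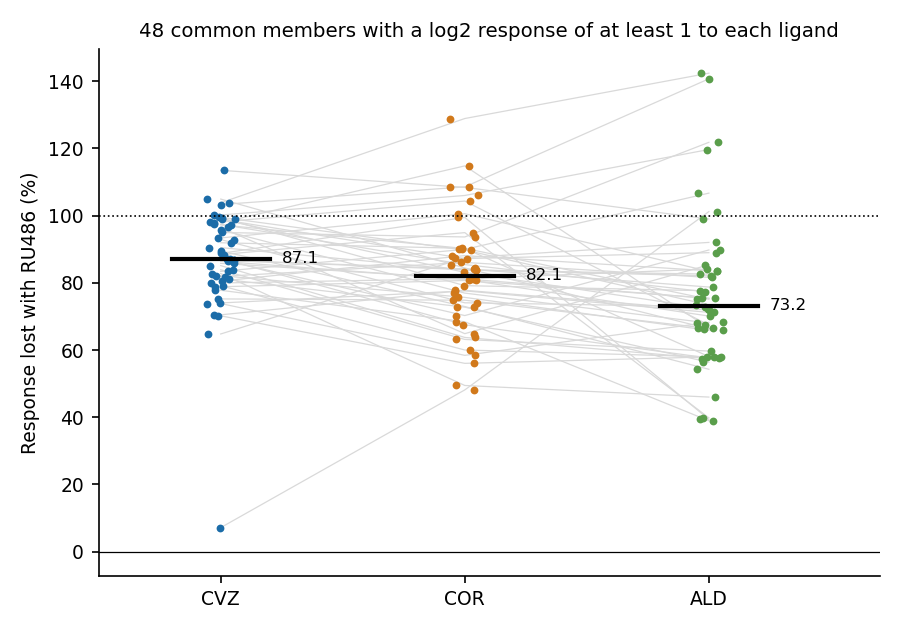
Percentage of the response lost with RU486 (y axis) by ligand (x axis) for the 48 members that changed with all 3 ligands in the first experiment and by at least a log2 of 1 in the second. Each point is 1 probe set, grey lines join the same probe set, black bars are medians (87.1%, 82.1% and 73.2%), and the dotted line marks a complete loss.

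Fkbp5, Klf15 and Sesn1, all above the array median on every array, show the pattern array by array. Fkbp5 encodes a co-chaperone that lowers the affinity of GR for hormone and is itself induced by GR. In the first experiment, which chose it, its signal was 1.52 with vehicle, 43.5 with CVZ, 26.6 with COR and 10.9 with ALD. In the second it was 2.17 with vehicle, 43.8 with CVZ, 28.3 with COR and 13.4 with ALD, against 2.40 with RU486 alone, 4.25 with CVZ plus RU486, 4.85 with COR plus RU486 and 5.33 with ALD plus RU486. The ligands stood apart without RU486 and within a narrow range with it, all 3 above RU486 alone. The response fell from 19.6-fold to 1.75-fold for CVZ, from 12.7-fold to 2.00-fold for COR and from 6.03-fold to 2.19-fold for ALD. The percentage lost was 81.1%, 72.7% and 56.4%. The loss was -3.48 ± 0.23 (SE) for CVZ, -2.66 ± 0.25 for COR and -1.46 ± 0.24 for ALD on the log2 scale (limma, Benjamini-Hochberg adjusted p = 0.000109, 0.000246 and 2.5e-06). The response left did not pass the threshold of 0.05 for any ligand (limma, adjusted p = 0.67, 0.49 and 0.18), with 95% intervals from 0.40 to 1.22 for CVZ, 0.59 to 1.41 for COR and 0.72 to 1.54 for ALD.

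Klf15 encodes a Krüppel-like factor that directs amino acid and lipid use in muscle. Its signal in the second experiment was 5.08 with vehicle, 45.4 with CVZ, 29.7 with COR and 17.5 with ALD. With RU486 it was 8.64 without ligand, 11.6 with CVZ, 11.4 with COR and 11.3 with ALD. The 3 ligands lay within 0.04 of each other on the log2 scale with RU486, and the loss was 86.7%, 84.1% and 78.7%. The loss was -2.73 ± 0.20, -2.13 ± 0.20 and -1.40 ± 0.20 (limma, adjusted p = 0.000109, 0.000248 and 6.8e-08). The 95% interval of CVZ minus ALD with RU486 ran from -0.28 to 0.36.

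Sesn1 encodes sestrin 1, a stress-induced regulator of growth signalling. Its signal was 5.74 with vehicle, 48.1 with CVZ, 38.8 with COR and 25.3 with ALD, and with RU486 it was 11.6 without ligand, 17.0, 18.5 and 19.3. The order of the ligands with RU486 was thus the reverse of that without it, while the 95% interval of CVZ minus ALD (-0.18) ran from -0.49 to 0.13. The loss was 82.1%, 75.6% and 65.8% (log2 -2.50 ± 0.18, -2.07 ± 0.18 and -1.40 ± 0.18, limma, adjusted p = 0.000109, 0.000147 and 1.5e-09). The p-values for ALD are smaller than those for CVZ at smaller losses because the fit for ALD took a prior of 214.9 degrees of freedom, against 9.23 for CVZ and 12.9 for COR. Counts of calls therefore cannot be compared between the ligands.

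**Figure D4:**
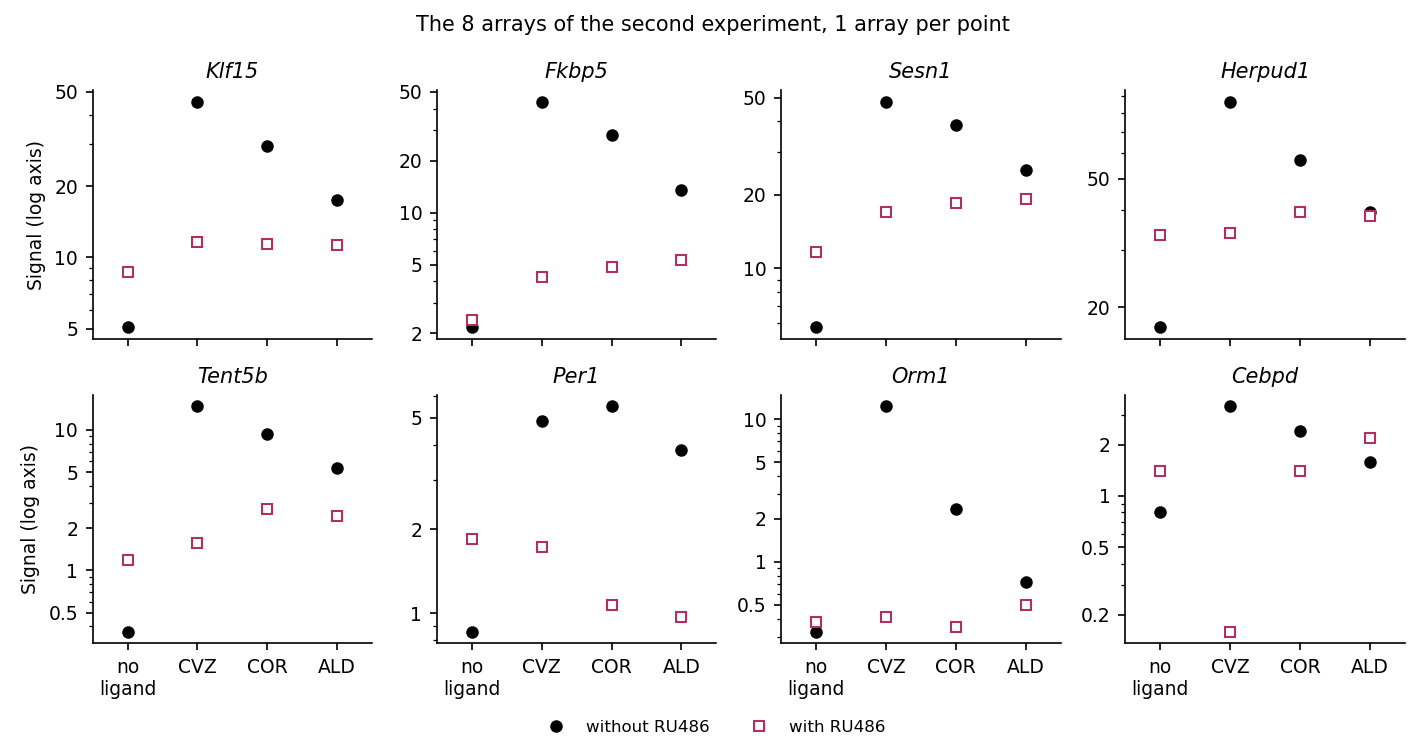
Signal relative to the array median (log y axis) of 8 genes on the 8 arrays of the second experiment, 1 array per point, by ligand (x axis). Filled circles are without and open squares with RU486. Klf15, Fkbp5, Sesn1 and Tent5b fall from CVZ to COR to ALD without RU486. With it the 3 ligands lie closer together, for Tent5b still from 1.56 (CVZ) to 2.75 (COR). For Cebpd the CVZ plus RU486 array is at 0.159.

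Other transcripts with low vehicle signals followed the same course, though their sizes depend on the added constant. Tent5b, a non-canonical nucleotidyltransferase, had signals of 0.366 with vehicle, 14.7 with CVZ, 9.43 with COR and 5.34 with ALD, and of 1.20, 1.56, 2.75 and 2.43 in the same order with RU486. It lost 92.8%, 74.0% and 72.9% of its response. Spata13, a guanine nucleotide exchange factor, went from 0.555 to 21.7, 11.4 and 5.63, and with RU486 from 1.15 to 1.18, 2.17 and 1.93. For both genes CVZ plus RU486 gave the lowest of the 3 ligand signals, as CVZ alone gave the highest. The loss passed the threshold for all 3 ligands in Tent5b and Spata13 (limma, adjusted p from 1.5e-08 to 0.000407), though for Spata13 with ALD not in the fit on all 12 arrays (adjusted p = 0.0667). Sult1a1, a phenol sulfotransferase, had signals of 0.424, 8.13, 4.91 and 2.11, and with RU486 of 0.819, 1.23, 1.31 and 1.32. Its loss of 86.4% with CVZ and 81.0% with COR passed (limma, adjusted p = 0.002 and 0.0192), and that of 70.1% with ALD did not (adjusted p = 0.11). The COR call was lost without the filter on low values (adjusted p = 0.12).

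Per1, a repressor of the circadian clock and a direct GR target, was a member whose response went past complete loss with every ligand. Its signal was 0.857 with vehicle, 4.88 with CVZ, 5.50 with COR and 3.83 with ALD. With RU486 it was 1.84 without ligand, 1.73 with CVZ, 1.07 with COR and 0.972 with ALD. All 3 ligand arrays lay below the RU486 array, and the loss was 103.8%, 128.8% and 142.3% (limma, adjusted p = 0.0134, 0.00459 and 1.5e-06). The response left was -0.09, -0.75 and -0.88, and none passed (adjusted p = 0.9999, 0.9999 and 1.0).

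The promoters of Orm1, Lcn2 and Fkbp5 are shown for the letters of a GR site. The GR binds an inverted repeat whose core is ACANNNTGT, which reads the same on both strands. RefSeq promoters (build GRCr8, 250 bases before the annotated start) held it in 1943 of 33469 cases (5.81%) and in 3 of the 24 named genes with a promoter entry among the 48 members above (12.5%), namely Orm1, Glul and Dcp1b. The first share counts promoter entries and the second counts genes with a match in any entry, so the 2 have unlike units. The core stood in the promoters of Orm1 and Lcn2. Orm1 responded again 2-fold to all 3 ligands, with ALD only from 0.324 to 0.724, and Lcn2 only to CVZ. The core was not in the promoter of Fkbp5, whose letters show only that this window lacks it. Capitals mark the core, each sequence is given 5′ to 3′ on the gene's strand, and a match is a description of letters and not of binding.
Orm1, chr5:81788259-81788508, plus strand: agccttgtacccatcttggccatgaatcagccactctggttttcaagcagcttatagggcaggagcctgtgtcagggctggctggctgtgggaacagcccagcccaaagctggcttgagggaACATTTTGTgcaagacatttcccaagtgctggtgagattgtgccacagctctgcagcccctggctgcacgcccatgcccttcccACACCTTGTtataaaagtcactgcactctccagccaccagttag
Lcn2, chr3:36081781-36082030, minus strand: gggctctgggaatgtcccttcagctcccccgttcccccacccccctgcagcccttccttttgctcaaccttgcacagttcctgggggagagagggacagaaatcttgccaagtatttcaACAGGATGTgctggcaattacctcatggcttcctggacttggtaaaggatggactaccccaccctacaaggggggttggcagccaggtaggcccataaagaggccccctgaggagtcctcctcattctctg
Fkbp5, chr20:6543556-6543805, minus strand: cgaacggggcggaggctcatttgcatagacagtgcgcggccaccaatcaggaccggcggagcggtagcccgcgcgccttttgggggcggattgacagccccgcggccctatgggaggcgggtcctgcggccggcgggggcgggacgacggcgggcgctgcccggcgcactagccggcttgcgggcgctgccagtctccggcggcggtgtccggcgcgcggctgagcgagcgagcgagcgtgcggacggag

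Orm1, an acute phase plasma protein, had signals of 0.324 with vehicle, 12.3 with CVZ, 2.35 with COR and 0.724 with ALD. With RU486 they were 0.381 without ligand, 0.412, 0.348 and 0.497. The loss was 98.1% for CVZ, 104.3% for COR and 67.4% for ALD, and it passed for CVZ only (limma, adjusted p = 0.0036, 0.11 and 0.97), while the difference between the losses was not tested. Lcn2, the iron carrier lipocalin 2, rose from 4.12 to 12.1 with CVZ, and CVZ plus RU486 gave 2.60 against 3.47 with RU486 alone. Its loss of 126.5% passed (limma, adjusted p = 0.0225). With COR its response was 0.50 in the second experiment against a first change above 2-fold, and it gives no percentage.

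Losses that passed the threshold ran almost wholly against the first change. The loss was fitted for each ligand without the first-experiment arrays of that ligand and of vehicle, so the 2-fold choice and the test shared no value. The low-signal limit did use the tested arrays, so the counts of tested members called are a description. For CVZ, 220 of the 1316 members tested had a called loss, 219 of them against the first change, where 1.81% of all tested probe sets did so (1.87% in either direction). For COR it was 56 of 828, all 56 against the first change, beside 0.413% of all tested (0.424% in either direction). For ALD it was 26 of 668, with 24 against it, beside 0.617% (0.779% in either direction). The median size of these losses was 1.84, 1.64 and 1.58. With a variance prior that ignores the mean signal, or without the experiment as a block, limma called 0 losses for each ligand. The probe sets at an unadjusted p under 0.05 were then 1615, 927 and 811 without the trend and 456, 191 and 107 without the block.

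The response left with RU486 was called in almost no probe set. Of 18625 tested, 1 passed for CVZ (0.00537%), 0 for COR (0%) and 1 for ALD (0.00537%) (limma, adjusted p), and 531, 439 and 421 had an unadjusted p under 0.05. Among the members tested, 1 was called for CVZ, 0 for COR and 0 for ALD, and 65, 52 and 41 had an unadjusted p under 0.05. The member was Cebpd, and the probe set called for ALD has no gene name. The contrast has 1 array on each side, so a missing call does not show that RU486 removed the response. The 3 ligands with RU486 were also compared pair by pair, with p-values adjusted over all probe sets and the 3 pairs together. CVZ against COR gave 1 call (0.00537%), CVZ against ALD 1 (0.00537%) and COR against ALD 0 (0%), with 449, 396 and 330 probe sets at an unadjusted p under 0.05.

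Both calls between ligands were Cebpd, which encodes a C/EBP transcription factor of the acute phase. In the first experiment its signal was 3.21 with vehicle, 6.88 with CVZ, 7.12 with COR and 3.82 with ALD. In the second it was 0.807 with vehicle, 3.36 with CVZ, 2.41 with COR and 1.58 with ALD, and with RU486 it was 1.40 without ligand, 0.159 with CVZ, 1.41 with COR and 2.19 with ALD. The array with CVZ plus RU486 was the lowest of all 12 and stood alone. CVZ plus RU486 lay 2.69 below COR plus RU486 on the log2 scale, -2.69 ± 0.33 (limma, adjusted p = 0.0207), and -3.31 ± 0.33 from ALD plus RU486 (adjusted p = 0.00288). The value rests on 1 array, whose signal lies near the added constant. With the constant at the 25th percentile CVZ against COR was -1.90 (adjusted p = 0.14) and against ALD -2.45 (0.00968), and without the filter on low values they had adjusted p = 0.19 and 0.0411. Without the trend (adjusted p = 0.92 and 0.47) or the block (1 and 1) both calls were lost. The response left of Cebpd with CVZ (-2.69 ± 0.33, limma, adjusted p = 0.0141) was lost under all 4 of these alternatives (adjusted p from 0.0609 to 1).

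Apart from Cebpd, no gene named so far passed a test between ligands with RU486, and the sizes varied. CVZ minus ALD was -0.32 for Fkbp5 (95% interval -0.73 to 0.09), -0.18 for Sesn1 (-0.49 to 0.13) and 0.04 for Klf15 (-0.28 to 0.36). It was 0.79 for Per1 (-0.04 to 1.61) and -0.23 for Orm1 (-1.30 to 0.83). For Tent5b it was -0.62 (-1.17 to -0.07) and for Spata13 -0.68 (-1.32 to -0.04), and CVZ minus COR was -0.79 (-1.34 to -0.24) and -0.84 (-1.48 to -0.20), so that for these 2 genes the unadjusted interval left out 0. None of these passed (limma, adjusted p = 1.0), and the intervals say how large a difference between the steroids the arrays leave room for.

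The members that lost least and most were taken among named members above the limit with a response of at least 1.5 on the log2 scale, and most of them were of low signal. For CVZ the least loss was -17.8% in Dapk2, a death-associated kinase, whose RU486 array stood at 0.0367 against 0.576 with vehicle. Next came RT1-Ba, a class II antigen chain, at 7.17%, and Fabp4, a fatty acid carrier, at 40.4%. The highest were Cebpd at 236.6%, Tnfaip3, an inhibitor of NF-kappaB signalling, at 134.7% and Pfkfb3, a regulator of glycolysis, at 134.3%. For COR the lowest were Arrdc2 at 39.3%, Kdr at 45.3% and Dcp1b at 49.4%, and the highest Pfkfb3 at 148.7%, Kcna4 at 131.5% and Foxl2 at 131.2%. For ALD they were Fkbp5 at 56.4%, Rasgrp1 at 57.9% and Sesn1 at 65.8%, and Per1 at 142.3%, Tp53rka at 117.1% and Npff at 115.9%. Besides Fkbp5, Sesn1 and Per1, given above, the loss of Cebpd, Pfkfb3, Arrdc2, Kdr and Dcp1b passed with CVZ (limma, adjusted p from 0.000796 to 0.0155), that of Kdr not in the fit on all 12 arrays (adjusted p = 0.17).

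Rasgrp1, Dcp1b and Kdr stood among the members that lost least with COR or ALD. Rasgrp1, a Ras activator, had signals of 0.399 with vehicle, 3.23 with CVZ, 3.14 with COR and 2.61 with ALD, and 0.469, 0.894, 1.19 and 1.05 in that order with RU486. It lost 70.2%, 56.0% and 57.9%. Dcp1b, of the mRNA decapping complex, went from 1.72 to 9.80, 5.65 and 3.93, and with RU486 from 1.77 to 2.41, 3.25 and 2.78, a loss of 82.7%, 49.4% and 46.0%. Kdr, a receptor of vascular endothelial growth factor and a marker of endothelium, went from 2.44 to 12.5 and 13.0 with CVZ and COR, and with RU486 from 2.30 to 4.10 and 5.77. Kdr had the highest mean signal of the endothelial markers quoted above (8.05), and the part of those cells in its change was not tested. In bulk samples fewer cells of a type and less RNA per cell cannot be told apart.

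Genes of the GR pathway were then read from lists of known genes, whether or not the first experiment had chosen them as members. Of 28 GR targets tested, 19 had a called loss with CVZ, 10 with COR and 5 with ALD, all downward, and 9, 18 and 23 did not pass. Over all 10082 tested genes with a name 184 fell and 36 rose with CVZ, 46 and 1 with COR, and 92 and 3 with ALD. Over all probe sets 85.3% of the CVZ calls fell, against 64.3% with quantile normalization and 64.7% with trimmed mean scaling. The median loss of the targets was -1.90, -1.15 and -0.43, beside -0.11, -0.06 and -0.12 over all genes. Fkbp5, Per1, Klf9, Klf15 and Sesn1 had a called loss with all 3 ligands, which need not be a complete one. With CVZ and COR the called targets also held Cdkn1a, Pdk4, Bcl6, Crispld2 and Sult1a1. With CVZ they further held Sgk1, Errfi1, Ddit4, Glul, Cebpd, Cebpb, Pik3r1, Lcn2 and Rasd1. Sgk1, a kinase that regulates sodium channels, had signals of 2.86 with vehicle, 14.6 with CVZ, 5.17 with COR and 3.49 with ALD, and of 2.64, 2.59, 2.47 and 3.08 with RU486. Its loss with CVZ was 101.1% (log2 -2.35 ± 0.29, limma, adjusted p = 0.00221), and the response to ALD was 0.28, where Sgk1 was no member.

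Of 16 targets ascribed to the mineralocorticoid receptor, 6 had a called loss with CVZ and 2 each with COR and ALD. Of all named genes tested 2.18%, 0.466% and 0.942% did. The 2 were Per1 and Fkbp5, which are GR targets too, and the CVZ list added Sgk1, Usp2, Orm1 and Lcn2. The median response of the 16 was 0.85 with CVZ, 0.43 with COR and 0.13 with ALD, beside 0.06, 0.05 and 0.08 over all genes. ALD therefore did not stand above the other ligands in that list, and the median left with RU486 was 0.03, 0.01 and 0.03. Neither receptor gene was a member for any ligand. The signal of Nr3c1, which encodes GR, was 9.54 with vehicle, 6.04 with CVZ, 7.14 with COR and 8.92 with ALD, and 10.5, 10.2, 10.8 and 9.77 with RU486. Its loss of 0.62 with CVZ did not pass (limma, adjusted p = 0.32). For Nr3c2, the mineralocorticoid receptor, the signals lay between 1.76 and 2.64 without and 2.44 and 2.87 with RU486.

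Inflammatory genes moved in both directions. Of 14 tested, 3 had a called loss with CVZ, 1 with COR and 0 with ALD (limma), beside 2.18%, 0.466% and 0.942% of all named genes tested. Ccl2, a chemokine that draws monocytes, fell with CVZ from 16.3 to 2.36, and stood at 12.4 with RU486 and 8.18 with CVZ plus RU486. It lost 78.1% of its fall (log2 loss 2.15 ± 0.25, limma, adjusted p = 0.00168). Ccl20, a chemokine for lymphocytes, rose from 1.09 to 10.6, 6.39 and 3.19, and stood at 1.58, 1.41, 2.08 and 2.26 with RU486. It lost 104.9%, 84.4% and 66.3%, and the first 2 passed (adjusted p = 0.0006, 0.0176 and 0.21), the second not without the filter on low values (0.0794). Ptgs2, which encodes cyclooxygenase 2, rose from 0.651 to 13.4 with CVZ and 2.37 with COR, and stood at 0.983, 0.73 and 0.83 with RU486, a loss of 109.4% and 112.9%, of which the first passed (adjusted p = 0.00183 and 0.37).

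Immediate early genes were read in the same way, and of 15 tested 2 had a called loss with CVZ (Jun and Egr1), 1 with COR (Egr1) and 2 with ALD (Jun and Egr1), beside 2.18%, 0.466% and 0.942% of all named genes. Egr1, a zinc finger factor, had signals of 4.92 with vehicle, 35.6 with CVZ, 22.0 with COR and 10.5 with ALD, and of 7.02, 7.77, 8.38 and 8.01 with RU486. It lost 94.9% with CVZ and 88.2% with COR (limma, adjusted p = 0.000109 and 0.000498). Neither Jun nor Egr1 was a member for ALD. The Egr1 call with ALD was lost on all 12 arrays (limma, adjusted p = 0.20) and with quantile normalization (0.0563). The Jun call was not followed through the alternatives, and on all 12 arrays ALD had 15 calls in place of 145. Of 15 genes of muscle atrophy and autophagy, 5 had a called loss with CVZ (Foxo3, Sesn1, Ddit4, Klf15 and Pik3r1). With COR and ALD 2 each did (Sesn1 and Klf15), beside the same shares of all named genes (2.18%, 0.466% and 0.942%). Among 8 receptor coregulators the loss passed for Ppargc1a with CVZ, where it was no member. Among 11 receptors and chaperones it passed for Fkbp5 with each ligand. No fibroblast, smooth muscle or macrophage marker had a called loss (0 of 9, 6 and 7 for each ligand, limma, adjusted p). Myh7, a member for no ligand, was the only cardiomyocyte marker of 11 and Kdr, with CVZ, the only endothelial one of 6. These lists too stand beside the same shares of all named genes.

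RU486 alone raised part of the same genes. Against vehicle 24 of 18625 probe sets were called (0.129%), 20 up and 4 down. Without the trend or without the block limma called 0, with 1075 and 312 at an unadjusted p under 0.05. The fit also used the first vehicle array, which helped choose the members and their direction, so their overlap is a description. Of the 24, the members of CVZ held 10, those of COR 10 and those of ALD 8. All of these moved in the direction that the ligand had moved them. The named ones were Sesn1 (fitted log2 0.92 ± 0.13, limma, adjusted p = 0.00764), Herpud1 (0.84 ± 0.12, adjusted p = 0.00764), Tent5b (1.43 ± 0.23, adjusted p = 0.0187), Klf15 (0.80 ± 0.14, adjusted p = 0.0285) and Ivns1abp (0.79 ± 0.14, adjusted p = 0.0294). For these genes RU486 raised the baseline against which the response left is read. Over the members above the limit, RU486 alone gave a mean change equal to 10.8% of the CVZ response, 14.5% of the COR response and 18.1% of the ALD response. The mean change itself was 0.08, 0.07 and 0.03 on the log2 scale, in the direction of the first experiment. It was 0.19, 0.15 and 0.12 over the members that rose. Over those that fell it was -0.04, -0.05 and -0.07, against the direction of the first change. If vehicle instead of RU486 is taken as the baseline with RU486, the percentage lost is 82.2%, 67.5% and 35.8%. The vehicle array of the second experiment enters both RU486 alone and the response, and 11 probe sets were called without it.

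Herpud1, a gene of the endoplasmic reticulum stress response, shows both patterns. Its signal was 17.4 with vehicle, 86.6 with CVZ, 57.0 with COR and 39.5 with ALD, and 33.5 with RU486, 34.0 with CVZ plus RU486, 39.4 with COR plus RU486 and 38.3 with ALD plus RU486. The 4 RU486 arrays lay within a narrow range near the ALD array. The loss was 99.0% with CVZ and 86.4% with COR (limma, adjusted p = 0.000109 and 0.000276). For ALD it was no member, and its loss of -0.99 ± 0.15 was called (adjusted p = 7.1e-07), but not in the fit on all 12 arrays (-0.82, adjusted p = 0.13), where ALD had 15 calls in place of 145. It was the only 1 of 16 ATF4-linked stress genes with a called loss, beside 2.18%, 0.466% and 0.942% of all named genes tested. The 16 stress genes had median responses of -0.01, 0.00 and -0.09 to the ligands. Their median change with RU486 alone was 0.75, beside 0.07 over all genes. Ddit3, a stress-induced transcription factor, went from 5.95 with vehicle to 16.7 with RU486, and stood between 14.9 and 16.7 when a ligand was added.

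The arrays with RU486 differed from the others in overall brightness. Their median before the division by the array median was 35.4 to 37.7, against 22.4 to 33.7 on the second-experiment arrays without RU486 and 21.1 to 25.5 in the first. Among the ligand arrays of the second experiment, ALD at 33.7 was the nearest to the RU486 arrays and CVZ at 22.4 the farthest. This order is the same as that of the percentages lost, and its part in them was not tested. Scaling by a trimmed mean moved the response by -0.10 for CVZ, -0.07 for COR and -0.10 for ALD, as a median over probe sets on the log2 scale. The median move was -0.09 for RU486 alone, and 0.05, 0.0014 and 0.03 for the response left. The loss above the limit was then 92.2%, 81.2% and 50.4%.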

How the data were processed

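RNA was measured on 12 Affymetrix rat arrays of 31099 probe sets, 8 groups in 2 experiments. The deposited values are intensity signals on a linear scale, made with MAS5 per the submitters' processing notes. Tested on the file, each array had a median of 1, so the authors had scaled each array by its median. The array number limits the precision. A constant of 0.0696, the 10th percentile of all values, was added before log2. After 57 control probe sets were left out, 31042 remained, and 18625 above the low-signal limit were tested with limma 3.58.1 in R 4.3.3 (mean-variance trend, experiment as a block, 3 residual degrees of freedom, 12.2 from the prior). Calls needed a Benjamini-Hochberg adjusted p under 0.05 over all probe sets tested, and intervals are 95%. Each loss was fitted on 10 arrays with 1 residual degree of freedom, so its errors come largely from the prior shared across probe sets. The procedure was tested on simulated data.

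Symbols came from the array annotation, updated through the current gene ID where one matched (20758 of the 20826 probe sets with 1 symbol; 436 had several and 9780 none). Genes were named by 1 probe set, that of highest mean. Named were, by a fixed rule, the 12 largest common rises and falls, the 8 largest rises and 5 largest falls of each ligand seen again, members called in the response left, the 3 least and 3 most lost, both receptors, and up to 4 members per list. Some genes under this rule are left out, and the genes shown with RU486 alone only, Ivns1abp and Ddit3, were chosen after their values were seen. Members and lists were chosen with earlier results of these data known. The experiment is a pairing by the labels: after removal of group means, deviations correlated between groups at 0.512 to 0.567. Other scalings, constants, limits, an exchange of the experiments, and fits without each array, the block or the trend were tried. Promoters came from RefSeq (GRCr8), and the genome build behind the array is not given in the sources used here.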

Additional observations from a re-analysis of the deposited data

Results flagged for a closer look

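Cebpd is the gene whose level with RU486 was called different between ligands. CVZ plus RU486 minus COR plus RU486 was -2.69 and CVZ plus RU486 minus ALD plus RU486 was -3.31 on the log2 scale (limma, adjusted p = 0.0207 and 0.00288 over 18625 probe sets and 3 pairs). Both rest on the CVZ plus RU486 array, at a signal of 0.159, near the added constant, and both calls were lost without the trend or the block. The first was also lost with the constant at the 25th percentile (adjusted p = 0.14) and without the filter on low values (0.19).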

How the results depend on the processing

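Percentages were held stable when they moved by less than the spread between a value and its repeat with the experiments exchanged, pooled over ligands (an SD of 7.82 points over all members and 9.13 above the limit; 11.5, 13.1 and 2.99 for differences over all, own and common members). RU486 alone has no second array and was read against the same spread. Of 182 recomputed percentages, 130 stayed within it. The exchanged losses and differences are among the 182 and also set the spread, so for them this is no independent check. Over all members the spread rests on CVZ and COR only, since ALD has no percentage there. Above the limit the loss moved to 82.2% (CVZ), 67.5% (COR) and 35.8% (ALD) with vehicle as the baseline, and for ALD to 76.2% with the experiments exchanged, 70.8% for rises, 81.6% as a median over members and 64.6% over the members of CVZ. Over all members it moved for CVZ to 71.1% for rises and 152.6% for falls. For COR it moved to 54.1% for rises, 118.3% for falls, 83.5% at 3-fold, 89.6% exchanged, 93.5% as a median, 82.4% over the members of CVZ and 82.0% above the limit. CVZ minus COR over all members became 3.96 points at 3-fold, 1.06 exchanged, 34.3 for falls and 2.99 as a median. Above the limit CVZ minus ALD (39.1 points) became 15.7 exchanged, 25.4 for rises and 12.7 as a median, and COR minus ALD (28.1) became 6.05, 13.2 and 3.92. Over common members CVZ minus COR (3.84) became 7.20 at 4-fold, 10.3 with vehicle as the baseline and -9.10 for falls. CVZ minus ALD (12.5) became 6.02 at 3-fold, 8.24 at 4-fold, 18.5 exchanged, 28.1 with vehicle and 5.65 for falls. COR minus ALD (8.68) became 5.66 with quantile normalization, 12.9 with the trimmed mean, 4.83 at 3-fold, 1.04 at 4-fold, 11.9 exchanged, 17.8 with vehicle and 14.8 for falls. RU486 alone became 10.8% (CVZ) and 14.5% (COR) above the limit, -4.13% and -10.2% for COR with the smaller constant and at 4-fold, and 27.3% and 30.5% for ALD at 4-fold and over the members of CVZ. With the experiments exchanged it reached 260% and 703% over all members and 49.5%, 114% and 417% above the limit, where choice and reading share the second vehicle array.

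Losses called (348, 79 and 145) became 597 and 539 for CVZ with quantile and trimmed mean scaling, 141 for COR with the constant at the 25th percentile, 43 for COR and 59 for ALD without the filter, and 61, 77 and 15 for ALD with quantile scaling, the trimmed mean and all 12 arrays. The share of ALD losses that fell went from 95.9% to 86.9% with quantile and 88.3% with trimmed mean scaling. Without the trend 0 were called in any comparison. Without the replicate block, which leaves the pairing out, also 0. RU486 alone gave 13 calls without the filter and 11 to 42 without 1 array, with 36 and 11 without the first and second vehicle array and 39 and 42 without the first and second ALD array. The response left gave 0 for CVZ with the constant at the 25th percentile and without the filter, 0 for ALD with these, quantile and trimmed scaling, and 1 to 5 (CVZ), 0 (COR) and 0 to 2 (ALD) without 1 array. Pairs under RU486 gave 1 with the constant at the 25th percentile and without the filter, and 2 to 3 without 1 array. Of 42 called losses of named genes, 35 stayed called under all alternatives except the trend and the block. Leaving out an array in the loss fits was not run, as no residual degrees of freedom remain. The cause of these shifts was not tested. The members of CVZ for every ligand, and the limit combined with other choices, were added after seeing the data.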

Other observations

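Besides the members, RU486 alone changed genes that no ligand had changed 2-fold. Hmox1, which encodes heme oxygenase 1, had a signal of 7.56 with vehicle and 7.28 to 8.74 with the 3 ligands, and of 15.2 with RU486 and 15.4 to 20.2 with RU486 plus a ligand (fitted log2 1.01 ± 0.15, limma, adjusted p = 0.00764). Trib3, a pseudokinase of the stress response, went from 2.11 with vehicle to 7.12 with RU486 (adjusted p = 0.00911), and Dnajb9, a chaperone of the endoplasmic reticulum, from 8.02 to 16.7 (adjusted p = 0.00764). Atf4, the transcription factor of the integrated stress response, went from 42.2 to 64.3 (fitted log2 0.59 ± 0.10, adjusted p = 0.0345). Abcg1, a cholesterol exporter, fell from 7.17 to 2.67 (fitted log2 -1.47 ± 0.20, adjusted p = 0.00513), and stood between 2.66 and 3.34 with RU486 plus a ligand. For each of these genes the 4 arrays with RU486 lay on the same side of the 4 second-experiment arrays without it, with no overlap. They were picked from the 24 calls after their values were seen, and without the trend or the block none of the 24 was called (1075 and 312 probe sets at an unadjusted p under 0.05).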
